A study of Mus musculus with 6 samples.

Results

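Genes of the response to low oxygen and of glycolysis were followed in the posterior part of mouse embryos with and without Fkbp8, and none of the 10 differed between the genotypes beyond the spread between samples. They were Hif1a, Egln3, Vegfa, Slc2a1, Pdk1, Hk2, Aldoa, Pgk1, Eno1 and Ldha, out of 18507 genes named on the array, and they were chosen by their symbol in the platform annotation. Of these, 8 genes had a spot of their own symbol, with 9 spots in all since Ldha had 2. Eno1 had no symbol in that annotation and was found by its RefSeq accession and the description in the array files. The spot for Aldoa is listed for both Aldoa and its retrogene Aldoart1, so its values are those of a shared probe. The second Ldha spot was near background on all 6 arrays, which left 10 probes that were tested, 1 for each gene.

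Samples 6, 9 and 11 were Fkbp8 null and samples 7, 10 and 12 wild type, 3 of each genotype, all at embryonic day 9.5 and of the mixed strain C57BL/6 and 129S5/SvEvBrd, at an average of 21.6 somite pairs. The tissue was everything behind the forelimb pit, although the source label of every sample reads anterior neural tube and the tissue label posterior neural tube. RNA was amplified and hybridised to 1-colour CodeLink arrays, on which 63.3% to 69.2% of the 34967 transcript spots lay above background, and levels are given as normalized log2 signal after an offset of 50 was added to the background-subtracted intensity. The labels do not say how the null allele was made or whether a sample was a single embryo, so the error measures only the spread between these samples. Fkbp8 itself was near background on the 3 null arrays (background-subtracted intensity 24.7, 28.9 and 35.7) and above it on the 3 wild-type arrays (123, 183 and 486). In tissue made of many cell types, fewer cells of a type and less RNA per cell cannot be told apart. The marker lists for neural tube (9 of 9 markers tested), paraxial mesoderm (9 of 9), primitive erythroid cells (8 of 8 on the array), endothelium (8 of 9), gut endoderm (8 of 8) and surface ectoderm (7 of 7) all held measured genes, and none of their markers was near background on every array.

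Cells sense oxygen through the hypoxia-inducible factors (HIF). When oxygen is present, prolyl hydroxylases of the Egln family modify the HIF alpha subunit, the Vhl protein then binds it and it is degraded; when oxygen is low the subunit persists, pairs with Arnt and binds short DNA elements in genes for glucose uptake, glycolysis and vessel growth. Embryos of this stage live in low oxygen and rely strongly on glycolysis. In cultured human cells the Fkbp8 protein has been reported to bind the oxygen sensor EGLN1 and to promote its degradation, which gives the comparison its interest, although an array measures RNA and not protein stability.

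The element that HIF binds has the core ACGTG or GCGTG. This core was searched on both strands in RefSeq promoter windows (GRCm38.p6, 250 bases before to 50 bases after a transcription start). All 10 genes were matched, with 17 windows, and 14 of the windows held a core, while 43.8% of all 32851 windows did. Of the 17 windows, 11 held 2 or more, against 20.6% of all windows. These counts include some cores more than once, since 2 of the Eno1 windows overlap and hold the same cores, as do 2 of the Aldoa windows. The genes were listed for their place in the response to low oxygen and glycolysis, and the windows were not matched for base content. The shares are therefore a description and not a test. A match is a description of the letters and not a bound site, and a core inside the palindrome CACGTG, which other factors also bind, counts on both strands. All 10 genes had a core in at least 1 window, including those with their lowest signal on other arrays. Shown here are the windows of 4 glycolytic enzymes with a probe of their own, all of which had their lowest signal on the same array, with every core in capitals on either strand. A relation between cores and signal was not tested.
Hk2, chr6:82774405-82774704, minus strand: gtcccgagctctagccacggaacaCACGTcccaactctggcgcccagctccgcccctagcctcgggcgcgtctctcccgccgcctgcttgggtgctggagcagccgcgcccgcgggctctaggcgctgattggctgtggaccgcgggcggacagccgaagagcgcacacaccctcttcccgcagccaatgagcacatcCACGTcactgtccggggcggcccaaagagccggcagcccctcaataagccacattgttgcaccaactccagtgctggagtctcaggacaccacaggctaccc
Pgk1, chrX:106186850-106187149, plus strand: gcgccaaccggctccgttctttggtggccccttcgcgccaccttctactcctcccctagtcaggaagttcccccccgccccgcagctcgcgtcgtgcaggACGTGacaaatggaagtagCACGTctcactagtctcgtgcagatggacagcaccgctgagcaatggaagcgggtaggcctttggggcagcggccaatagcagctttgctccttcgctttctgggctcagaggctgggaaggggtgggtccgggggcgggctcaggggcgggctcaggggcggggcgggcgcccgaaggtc
Eno1, chr4:150236947-150237246, plus strand: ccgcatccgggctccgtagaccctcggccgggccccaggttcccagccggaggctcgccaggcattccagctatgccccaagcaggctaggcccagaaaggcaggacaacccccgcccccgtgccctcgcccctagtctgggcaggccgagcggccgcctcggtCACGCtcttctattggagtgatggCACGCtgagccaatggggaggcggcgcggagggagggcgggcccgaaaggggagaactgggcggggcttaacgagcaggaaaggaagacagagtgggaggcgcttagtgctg
Ldha, chr7:46845554-46845853, plus strand: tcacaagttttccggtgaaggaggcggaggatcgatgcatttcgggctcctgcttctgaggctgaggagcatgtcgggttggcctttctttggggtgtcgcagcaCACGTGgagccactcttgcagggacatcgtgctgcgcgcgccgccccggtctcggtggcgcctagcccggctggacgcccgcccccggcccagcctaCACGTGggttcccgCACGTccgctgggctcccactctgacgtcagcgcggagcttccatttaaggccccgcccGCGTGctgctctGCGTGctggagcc
The Hk2 window holds 2 cores, the first bases of which lie at -226 and -52 from the start. The Pgk1 window holds 2, at -150 and -131, on opposite strands. The Eno1 window, for 1 of 3 annotated starts, holds 2 of the GCGTG form. The Ldha window holds 7 when each of its 2 CACGTG palindromes is counted on both strands, and 0.301% of all windows hold as many.

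Null and wild-type embryos were compared for each gene with limma, fitted over all 21243 probes tested and with p-values adjusted over all of them. Of the 10 member probes, 0 passed an adjusted p of 0.05 (adjusted p = 0.9999 for each) and 0 had an unadjusted p under 0.05. Over all probes tested, 0.00471% passed the adjusted threshold, which is the single probe of Tm7sf3, and 3.09% had an unadjusted p under 0.05. The log2 differences (null minus wild type) were positive for 6 genes and negative for 4, with a median of 0.06, while the median over all 12850 genes tested was 0.01 and 53.5% of them were positive. The direction of the member median depended on a wild-type array: it was -0.04 with 4 genes positive when sample 10 was left out, and 0.18 with 8 positive when sample 12 was. The differences ranged from -0.07 for the Aldoa probe to 0.33 for Hk2. The widest of the 95% intervals, that of the Aldoa probe, ran from -0.68 to 0.53. The narrowest, that of Egln3, ran from -0.15 to 0.31. With 3 arrays in each group, changes within these limits are not excluded. The adjusted threshold asks for more than a value outside such limits. Fkbp8 itself, at -1.77 ± 0.23 (SE), did not pass it (limma adjusted p = 0.41). Its null signal was near background, so this size depends on the offset. The Fkbp8 difference was -2.37 with an offset of 16 and -2.89 with subtraction floored at 1.

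**Figure D1:**
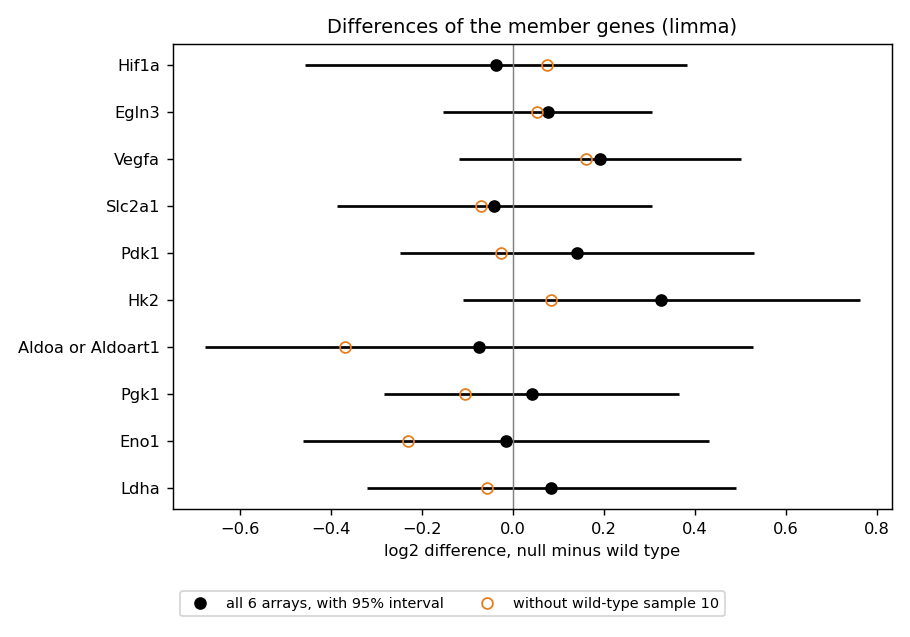
Log2 difference between null and wild-type samples (x axis) for each of the 10 member genes (y axis), with the limma 95% interval as a line and the value without wild-type sample 10 as an open circle. Every interval includes 0, and Hk2 has the largest difference, 0.33, which is 0.08 without sample 10.

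Hif1a encodes the oxygen-regulated alpha subunit of HIF-1. Its log2 signal was 7.78, 8.23 and 8.46 in null samples 6, 9 and 11 and 8.13, 8.42 and 8.03 in wild-type samples 7, 10 and 12. The null samples held both the lowest and the highest value, and the groups overlapped. The difference was -0.04 ± 0.18 (SE; 95% interval -0.46 to 0.38), with group means of 8.16 ± 0.35 and 8.19 ± 0.20 (SD, n = 3 each), and it was 0.15 without null sample 6 and -0.19 without null sample 11.

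Egln3 encodes a HIF prolyl hydroxylase whose own gene is induced by HIF. It read 7.90, 7.77 and 8.02 in null samples 6, 9 and 11 and 7.85, 7.77 and 7.84 in wild-type samples 7, 10 and 12. The wild-type values, which spanned 0.07, lay within the null range of 0.25. The difference was 0.08 ± 0.10 (SE), and it was 0.015 without null sample 11 and 0.14 without null sample 9. A further spot, described in the array files as Egln3 but given no symbol in the platform annotation, was above background on 1 null and 2 wild-type arrays only and was not tested.

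Vegfa encodes the growth factor that directs the formation of blood vessels, and is a HIF target. Its log2 signal was 7.83, 7.58 and 7.78 in null samples 6, 9 and 11 and 7.79, 7.48 and 7.35 in wild-type samples 7, 10 and 12. Wild-type samples 10 and 12 lay below all null samples, whereas wild-type sample 7 lay among them. The difference was 0.19 ± 0.14 (SE; 95% interval -0.12 to 0.50), from 0.10 without wild-type sample 12 to 0.32 without wild-type sample 7.

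Slc2a1 encodes the glucose transporter GLUT1, through which embryonic cells take up glucose. It read 7.99, 7.86 and 8.28 in null samples 6, 9 and 11 and 8.33, 8.03 and 7.90 in wild-type samples 7, 10 and 12. The groups overlapped over nearly their whole range, which was 0.42 in the null and 0.44 in the wild-type samples. The difference was -0.04 ± 0.15 (SE), and it was 0.083 without wild-type sample 7.

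Pdk1 encodes a kinase that inhibits pyruvate dehydrogenase and so keeps pyruvate from entering the mitochondrial cycle. Its signal was 8.19, 7.83 and 8.22 in null samples 6, 9 and 11 and 8.16, 7.61 and 8.07 in wild-type samples 7, 10 and 12. In each group a single sample, null sample 9 and wild-type sample 10, lay apart below the other two. The difference was 0.14 ± 0.17 (SE), and -0.027 without wild-type sample 10.

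**Figure D2:**
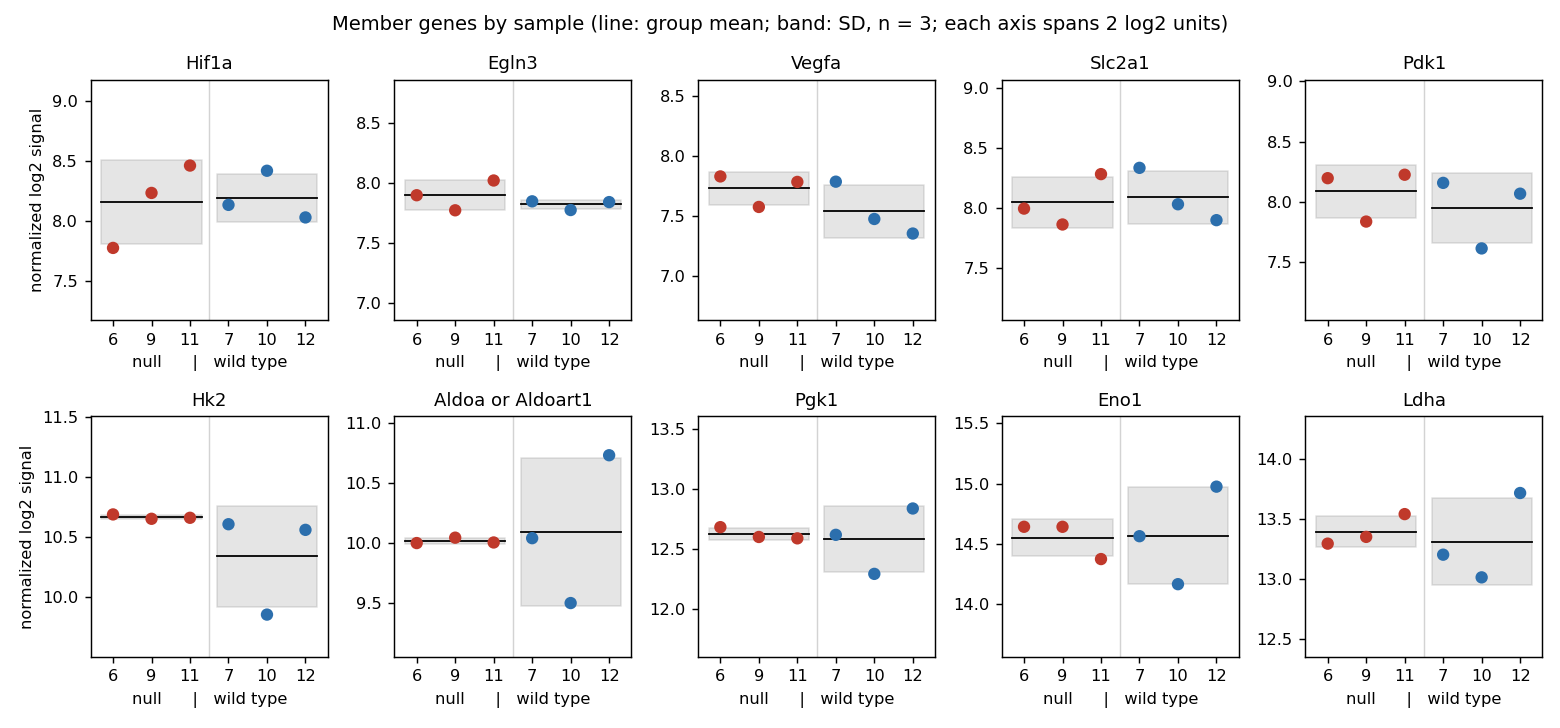
Normalized log2 signal (y axis) of the 10 member genes in each sample (x axis), null in red and wild type in blue, with the group mean as a line and the SD of 3 samples as a band. Only for Hk2 do the groups not overlap, and for Hk2, the Aldoa probe, Pgk1, Eno1 and Ldha wild-type sample 10 is the lowest of the 6.

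Hk2 encodes the hexokinase that traps glucose in the cell as its phosphate, the entry step of glycolysis. Its log2 signal was 10.69, 10.65 and 10.66 in null samples 6, 9 and 11 and 10.61, 9.85 and 10.56 in wild-type samples 7, 10 and 12. All null values lay above all wild-type values, as for 4.92% of all probes tested in this direction. Wild-type samples 7 and 12 lay just below the null values and sample 10 far below them. The difference was 0.33 ± 0.19 (SE; 1.25-fold, 95% interval 0.93 to 1.70), and it was 0.08 without wild-type sample 10.

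Aldolase A splits the phosphorylated sugar of glycolysis into smaller sugars, and the Aldoa probe is shared with Aldoart1. It read 10.00, 10.05 and 10.01 in null samples 6, 9 and 11 and 10.04, 9.50 and 10.73 in wild-type samples 7, 10 and 12. The null values and that of wild-type sample 7 lay together, with wild-type sample 10 well below and wild-type sample 12 well above them. The difference was -0.07 ± 0.26 (SE). Leaving out sample 10 made it -0.37, and leaving out sample 12 made it 0.25.

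Pgk1 encodes phosphoglycerate kinase, the first ATP-producing step of glycolysis, and lies on the X chromosome. Its signal was 12.68, 12.60 and 12.59 in null samples 6, 9 and 11 and 12.62, 12.30 and 12.84 in wild-type samples 7, 10 and 12. Again wild-type samples 10 and 12 bracketed all others. The difference was 0.04 ± 0.14 (SE), which became -0.10 when sample 10 was left out and 0.17 when sample 12 was. Sample 10 was also the single array with the X-inactivation RNA Xist clearly detected, at 10.34 where the others had 5.98 to 6.53. Its Y-linked Eif2s3y was at 6.16 where the others had 8.63 to 8.91. The part of sex in the Pgk1 value, or in the values of other genes in sample 10, was not tested.

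Eno1 encodes enolase, which forms phosphoenolpyruvate. It read 14.64, 14.64 and 14.37 in null samples 6, 9 and 11 and 14.56, 14.16 and 14.97 in wild-type samples 7, 10 and 12. The spot of wild-type sample 12, the highest, was saturated, so its true signal may be higher. The difference was -0.02 ± 0.19 (SE), and 0.0024 with median scaling. It ranged from -0.23 when sample 10 was left out to 0.20 when sample 12 was.

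Ldha encodes the lactate dehydrogenase subunit that turns pyruvate to lactate and restores the cofactor glycolysis needs. On the brighter probe the signal was 13.30, 13.35 and 13.54 in null samples 6, 9 and 11 and 13.21, 13.02 and 13.72 in wild-type samples 7, 10 and 12. Wild-type samples 10 and 12 were once more the lowest and the highest. The difference was 0.08 ± 0.18 (SE), with -0.057 in the absence of sample 10 and 0.29 in the absence of sample 12. Glycolytic enzymes have many processed gene copies in the mouse genome, and whether such copies contributed to these spots was not tested.

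The range over the 3 samples was wider in the wild-type than in the null group for all 5 enzymes. It was 0.036 in the null and 0.75 in the wild-type samples for Hk2, 0.045 and 1.23 for the Aldoa probe, 0.093 and 0.54 for Pgk1, 0.25 and 0.70 for Ldha, and 0.27 and 0.81 for Eno1. Averaged over the 5 enzymes, each relative to its own mean over the arrays, the log2 level was 0.05, 0.04 and 0.02 in null samples 6, 9 and 11 and -0.01, -0.45 and 0.35 in wild-type samples 7, 10 and 12. The group means were 0.04 ± 0.02 for null and -0.04 ± 0.40 for wild type (SD, n = 3 each). The null averages are closer together than the single enzymes, since in null sample 11 Ldha lay 0.19 above its mean and Eno1 was at -0.19. The null range was narrower than the wild-type range for 8 of the 10 members, as it was for 60.3% of all 12838 genes with a value on every array. Wild-type sample 10 was the lowest array for 6 of the 10 members and for 18.6% of all genes, and wild-type sample 12 was the highest for 4 members and for 21.5% of all genes. Both held together for 4 members, the Aldoa probe, Pgk1, Eno1 and Ldha, and for 5.90% of all genes. The correlation between pairs of these 4 probes over the 6 arrays was 0.72 to 0.94 (Pearson, as a description, since the probes share the same arrays). The 4 were picked by this shared order of samples 10 and 12, which itself favours a high correlation. With Hk2, the remaining enzyme, they correlated at 0.60 to 0.80.

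**Figure D3:**
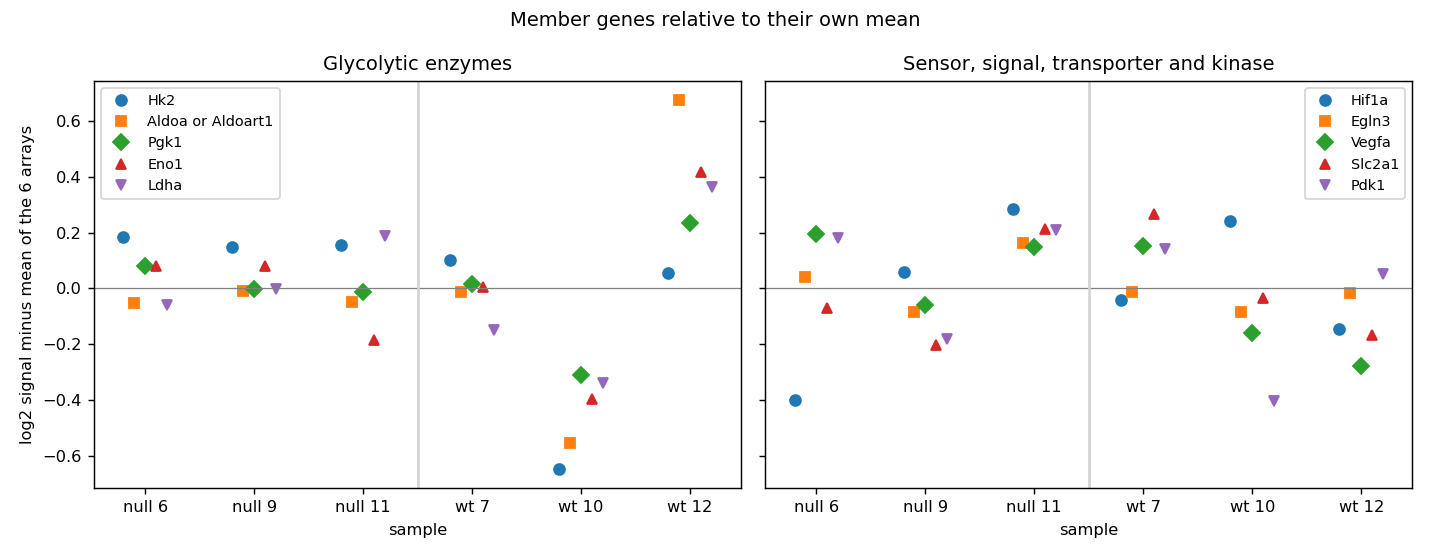
Log2 signal of each member gene minus its mean over the 6 arrays (y axis) by sample (x axis), with the 5 glycolytic enzymes on the left and the other 5 members on the right. All 5 enzymes are lowest in wild-type sample 10, and all except Hk2 are highest in wild-type sample 12. On the right Pdk1 alone is lowest in sample 10, and Hif1a is above its mean in sample 10.

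As a mean, the other 5 members did not follow the enzymes, although Pdk1 did in part. Their mean relative level was -0.01, -0.09 and 0.20 in null samples 6, 9 and 11 and 0.10, -0.09 and -0.11 in wild-type samples 7, 10 and 12. Hif1a was above its mean in sample 10, by 0.24, where all 5 enzymes were at their lowest, and its correlations with the 5 enzymes over the 6 arrays were -0.16 with Ldha, -0.45 with the Aldoa probe, -0.46 with Hk2, -0.64 with Pgk1 and -0.68 with Eno1 (Pearson, as a description). The remaining 4, Vegfa, Slc2a1, Egln3 and Pdk1, correlated with each other at 0.47 to 0.78. Pdk1 came nearest to the enzymes, with a correlation of 0.82 with Hk2, 0.70 with Pgk1, 0.54 with Ldha, 0.50 with the Aldoa probe and 0.43 with Eno1. Like the enzymes it was lowest in sample 10, at -0.40 relative to its mean.

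Several tissue markers also differed between samples, in samples 10 and 12 and in others. The mean relative level of the paraxial mesoderm markers (9 of 9 tested) was -0.73 in sample 10 and 0.33 in sample 12, that of the neural tube markers (9 of 9) was 0.46 and 0.09, and that of the primitive erythroid markers (8 of 8) was 0.61 and 0.05. In the other samples the paraxial mesoderm mean lay between 0.02 and 0.22. The erythroid mean was -0.55 in null sample 6, -0.50 in wild-type sample 7 and 0.30 in null sample 9. For the neural tube markers the mean was -0.42 in null sample 6. The summed normalized intensity of the paraxial mesoderm markers was 79.5 to 95.5 in the null samples and 32.9 to 107 in the wild-type samples, with the lowest value in sample 10 and the highest in sample 12. That of the erythroid markers was 172 to 486 in the null and 217 to 707 in the wild-type samples, with the highest in sample 10. That of the neural tube markers was 31.0 to 54.6 in the null and 46.6 to 76.5 in the wild-type samples, again highest in sample 10. Gut endoderm markers (8 of 8) were at -0.40 in sample 10 and 0.01 in sample 12, and their summed normalized intensity was 43.9 to 52.4 in the null and 30.4 to 54.0 in the wild-type samples, lowest in sample 10. Surface ectoderm markers (7 of 7) were at 0.22 in sample 10 and 0.25 in sample 12. Immediate-early genes of handling stress, of which 5 of 10 were tested, were at -0.06 in both samples. The part of these differences in the enzyme signals was not tested.

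Marker lists also differed in direction between the genotypes. Neural tube markers had a negative difference in 8 of 9 genes (median -0.19, 4 with an unadjusted p under 0.05) and surface ectoderm markers in 7 of 7 (median -0.32, 3 such genes), whereas paraxial mesoderm markers had a positive one in 7 of 9 (median 0.28, 1 such gene). Over all 12850 genes 53.5% were positive and 413 had such a p. Without wild-type sample 10 the paraxial mesoderm median was 0.077 with 5 genes positive, the neural tube median -0.23 with 3 positive, and the surface ectoderm median -0.32 with 1 of 6 positive. None passed the adjusted threshold. The summed normalized intensity of the surface ectoderm markers was 27.0 to 28.7 in the null and 27.3 to 48.0 in the wild-type samples. What these lists contribute to the member values was not tested.

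The remaining glycolytic enzymes showed the same order of the wild-type samples in part. Of 16 tested, 10 had a positive and 6 a negative difference between the genotypes, with a median of 0.0047, and 0 passed the adjusted or an unadjusted p of 0.05. Without wild-type sample 10 the median was -0.056, with 7 of the 16 positive. Their mean relative level was -0.18 in wild-type sample 10 and 0.21 in wild-type sample 12, and it lay between -0.04 and 0.03 in the other 4 samples. Sample 10 was lowest and sample 12 highest for 5 of the 16, namely Pfkl, Aldoc, Pgam1, Eno3 and Pkm, against the 5.90% of all genes given before. Pfkl, a subunit of phosphofructokinase, the committed step of the pathway, had the widest range, from 7.89 in sample 10 to 9.99 in sample 12, with 8.70, 8.57 and 8.35 in null samples 6, 9 and 11 and 8.78 in wild-type sample 7, which gave a difference between the genotypes of -0.35 ± 0.44 (SE). Pgam1, phosphoglycerate mutase, ran from 11.80 in sample 10 to 12.88 in sample 12. Pkm, the pyruvate kinase of embryonic tissue, ran from 10.71 to 11.23. These 5 genes were picked out after their values were seen. Among the genes with the smallest p between the genotypes, Pfkp had a difference of 0.23 ± 0.16 (SE), Hk1 -0.17 ± 0.14 and Tpi1 -0.15 ± 0.14, none of them called, and Pfkp was 0.071 without wild-type sample 10. Hk1 was -0.024 and Tpi1 -0.044 in the absence of wild-type sample 12. The second and dimmer Tpi1 probe gave -0.02.

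The sensing branch of the pathway was compared next. Of 16 tested genes for HIF subunits, hydroxylases, the degradation machinery and coactivators, 7 had a positive and 9 a negative difference, with a median of -0.04, and 0 passed either threshold. Egln1, the oxygen sensor named above, read 8.31, 8.21 and 7.94 in null samples 6, 9 and 11 and 7.96, 8.05 and 8.28 in wild-type samples 7, 10 and 12. The groups overlapped fully, with a difference of 0.06 ± 0.13 (SE), -0.017 without null sample 6 and -0.0078 without wild-type sample 7. Arnt, the partner of the HIF alpha subunits, was at 7.28, 7.15 and 7.16 in null and 7.41, 7.31 and 7.55 in wild-type samples, with no overlap, as for 4.33% of all probes in this direction. Its difference was -0.23 ± 0.10 (SE; limma adjusted p = 0.9999). Epas1, the HIF-2 alpha subunit, was also lower in every null sample, at -0.21 ± 0.09, but the probe was above background on only 1 of 3 null arrays, and the value was -0.51 with subtraction floored at 1. Hif1an, the asparaginyl hydroxylase that blocks the activity of the HIF alpha subunit, was higher in every null sample, at 0.20 ± 0.10 on the brighter and 0.10 on the dimmer probe. Os9 had -0.21 ± 0.11. Among these 16 genes, 2 lay wholly higher and 2 wholly lower in the null samples, where 4.92% and 4.33% of all probes did.

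Of 29 other HIF target genes tested, 18 had a positive and 11 a negative difference, with a median of 0.02. None passed the adjusted threshold, and 2 had an unadjusted p under 0.05, where 3.09% of all probes did. Vldlr, a lipoprotein receptor, read 7.80, 7.83 and 7.81 in null samples 6, 9 and 11 and 7.41, 7.58 and 7.34 in wild-type samples 7, 10 and 12. The null samples lay close together and above the wild-type samples, with a difference of 0.37 ± 0.10 (SE; limma adjusted p = 0.9999) and 0.19 on its dimmer probe. Ddit4, an inhibitor of mTOR signalling that is also induced by p53, read 7.90, 7.83 and 7.73 in null and 7.55, 7.21 and 7.53 in wild-type samples. Here too the groups did not overlap, and the difference was 0.39 ± 0.12 (adjusted p = 0.9999), or 0.28 without wild-type sample 10. P4ha1, a collagen prolyl hydroxylase, had 0.15 ± 0.09 without overlap, and Lox, which crosslinks collagen, -0.23 ± 0.12 with overlap. The Lox probe was above background on only 2 of 3 null arrays, and its difference was -0.12 without null sample 6 and -0.49 with subtraction floored at 1. Among these 29 genes, 4 lay wholly higher and 2 wholly lower in the null samples, where 4.92% and 4.33% of all probes did. A gene among the 4 was judged on only 2 wild-type arrays, since its spot in wild-type sample 10 was left out. The value of that spot lay above all null values of the gene.

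**Figure D4:**
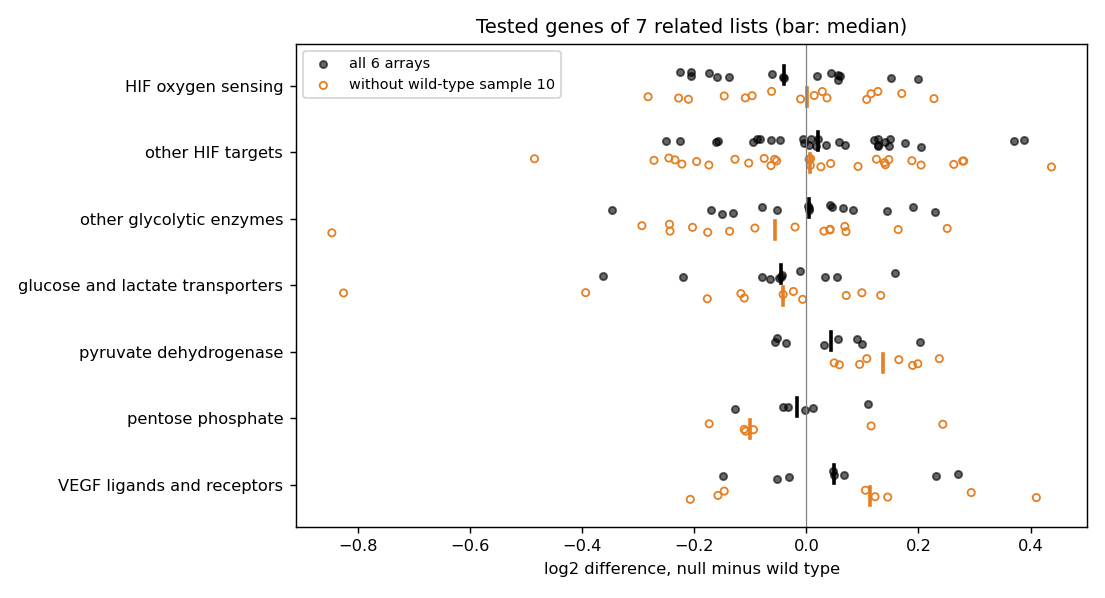
Log2 difference between null and wild-type samples (x axis) for every tested gene of 7 related lists (y axis), with all 6 arrays (filled) and without wild-type sample 10 (open), and the median of each list as a bar. With all arrays each median lies between -0.05 and 0.05, and the largest move without sample 10 is that of the pyruvate dehydrogenase list, from 0.04 to 0.14.

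Vessel growth signals beside Vegfa were also measured. Of 8 tested VEGF ligands and receptors, 5 had a positive and 3 a negative difference, with a median of 0.05. Of all probes 3.09% had an unadjusted p under 0.05, and of these 8 genes 1 did. This was Kdr, the main receptor for Vegfa on endothelial cells, at 9.90, 10.12 and 9.99 in null samples 6, 9 and 11 and 9.74, 9.79 and 9.68 in wild-type samples 7, 10 and 12. The groups did not overlap, as for 4.92% of all probes in this direction, and the difference was 0.27 ± 0.10 (SE, limma adjusted p = 0.9999). The endothelial markers (8 of 9 on the array tested) had a positive difference in 5 genes and a negative one in 3, with a median of 0.09 and a summed normalized intensity of 30.5 to 34.9 in the null and 26.2 to 36.9 in the wild-type samples, and their part in the Kdr value was not tested. Flt4, a further VEGF receptor, had -0.15 ± 0.10 (-0.088 without null sample 9), Vegfc 0.23 ± 0.18 and Nrp2 0.07 ± 0.21. Vegfc was above background on 2 of 3 wild-type arrays and was at 0.035 without wild-type sample 12, and Nrp2 was at -0.15 without wild-type sample 10.

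Glucose and lactate transport, the entry of pyruvate into mitochondria and the pentose phosphate branch held no called gene either. Of 11 tested transporters, 3 had a positive and 8 a negative difference (median -0.05). Slc16a3, the lactate exporter induced by HIF, varied most, with 10.28, 9.10 and 10.10 in null samples 6, 9 and 11 and 10.62, 9.27 and 10.69 in wild-type samples 7, 10 and 12. Each group had a single low sample, null sample 9 and wild-type sample 10, the same samples that were low for Pdk1. Its difference was -0.36 ± 0.42 (SE), -0.0020 without null sample 9 and -0.83 without wild-type sample 10, and -0.17 on its dimmer probe. Bsg, the chaperone of the lactate transporters, had -0.22 ± 0.19 (-0.070 without null sample 9), Slc2a9 0.16 ± 0.13 (0.056 without null sample 9) and Slc5a2 -0.08 ± 0.14 (0.068 without null sample 9).

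Of 8 tested genes of the pyruvate dehydrogenase complex, its kinases, a phosphatase subunit and the pyruvate carrier, 5 had a positive and 3 a negative difference. Without wild-type sample 10 all 8 were positive, as were 6644 of the 12600 genes tested in that setting. The mean relative level of these 8 genes was highest in sample 10, at 0.17, so leaving that array out raises their differences. Pdk3, a further inhibitory kinase, had 0.20 ± 0.12 (SE), and Dlat and Pdhb, which encode subunits of the complex, had 0.10 ± 0.14 and 0.06 ± 0.14, while Pdpr, a regulator of the phosphatase, had 0.09 ± 0.11. In the pentose phosphate branch, which supplies reducing power and ribose, 2 of 6 genes had a positive and 4 a negative difference. G6pdx, its entry enzyme, had -0.03 ± 0.11, Pgls -0.04 ± 0.16, Rpe 0.11 ± 0.15 and Taldo1 -0.13 ± 0.10. Leaving out wild-type sample 12 gave 0.11 for Pdk3, 0.034 for Pdpr, 0.0096 for Rpe and -0.074 for Taldo1. Taldo1 was -0.072 with median scaling, and Pdpr was 0.18 with subtraction floored at 1. For these 2 lists 0 genes had an unadjusted p under 0.05. Pdk3 and G6pdx lie on the X chromosome, and the part of sex in their values was not tested.

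The medians of 4 more lists also moved when wild-type sample 10 was left out, from -0.04 to 0.0018 for oxygen sensing, from 0.02 to 0.0070 for the other HIF targets, from -0.02 to -0.10 for the pentose phosphate branch and from 0.05 to 0.11 for the VEGF ligands and receptors.

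Outside these lists, the genes most like the mean profile of the 10 members over the 6 arrays, among 12263 genes compared, were Cryaa, Rab11a, Lpp, Col13a1 and Dcp1b, with Pearson correlations of 0.993 to 0.996. The least like were Asah1, Micalcl and Mrps14, at -0.985 to -0.991. These are the extremes of a ranking over only 6 arrays and are a description. Of the 12263 genes, 140 had a correlation of at least 0.9.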

How the data were processed

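The array files hold, per the file headers, a raw intensity, a normalized intensity (raw intensity divided by the array's median) and a quality flag for each spot, made by the authors with CodeLink Expression Analysis 4.1. The raw intensity was already background-subtracted, as each array had negative values, at 38 to 67 spots. The authors' value table holds the normalized intensity times a factor of 1.01 to 1.02 per array, and other details of the authors' processing are not given in the sources used here. Spots marked irregular, contaminated or missing (391 to 543 per array) were left out. Raw intensity was floored at 0 and raised by an offset of 50, then put on a log2 scale and quantile normalized.

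Testing required signal above background on every array of at least 1 group and at least 2 usable values in each group. The fit (lmFit, eBayes) ran in limma 3.58.1 under R 4.3.3, and p-values were adjusted by Benjamini-Hochberg over 21243 probes; the script was tested on simulated data. Quoted list values use the probe of highest mean signal per gene. Symbols were updated through Entrez number in RefSeq (GRCm38.p6), and 499 spots were named by accession. In each of 7 pathway lists (94 genes tested) at most 4 genes with the smallest p were named, with Egln1 and Fkbp8 named whatever their values; 1 gene that this rule names is not reported here. The genes most and least like the members were taken by rank. The members and lists were chosen with earlier results of these data known. Alternatives covered the offset, normalization, source of values, flags, the filter on dim probes, the eBayes prior and each sample left out. The analysis times in the headers lie within minutes of each other and give no batch to test.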

Additional observations from a re-analysis of the deposited data

How the results depend on the processing

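No member probe passed the threshold under any of the 15 alternatives (lowest adjusted p = 0.793), and none of the other named genes did (lowest 0.0725, for Fkbp8). Over all probes the count was 1, and it became 0 with subtraction floored at 1, cyclic loess, the normalized intensity from the scanner software and the value table of the authors, 2 with every spot kept, and 0 to 1 with a sample left out. The median difference of the members was -0.04 to 0.18 with a sample left out (lowest without wild-type sample 10, highest without wild-type sample 12) and 0.02 to 0.09 otherwise. The number of members with a positive difference, an alternative added after the data were seen, was 4 without sample 10 and 8 without sample 12. Of 150 repeated member differences, 11 changed sign. With a sample left out, the range was -0.16 to 0.083 for Slc2a1, -0.10 to 0.17 for Pgk1, -0.057 to 0.29 for Ldha, -0.027 to 0.26 for Pdk1, -0.37 to 0.25 for the Aldoa probe, -0.23 to 0.20 for Eno1 and -0.19 to 0.15 for Hif1a. Of 448 repeated differences of the other genes, 15 changed sign; the ranges were -0.017 to 0.17 for Egln1, -0.16 to 0.068 for Slc5a2, -0.0081 to 0.19 for Dlat, -0.060 to 0.17 for Pdhb, -0.11 to 0.058 for G6pdx, -0.17 to 0.12 for Pgls and -0.15 to 0.30 for Nrp2. Eno1 was 0.0024 with median scaling. G6pdx was 0.00011 with the scanner software's normalized intensity. Pgls was 0.019 with median scaling, 0.020 with that intensity and 0.018 with the authors' value table. The cause of these changes was not tested. Dlat could not be tested under every alternative. No paired analysis was possible because no number occurs in both groups. The number of arrays and, for dim probes, signal close to background limit the precision.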
